A study of Mus musculus with 4 samples.

Results

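Transcripts of 90 membrane traffic genes were compared between lineage-negative bone marrow of Mtg16-null mice and of wild-type mice. The genes were all Rab GTPases, sorting nexins, syntaxins and vesicle-associated membrane proteins (VAMPs) that had a probe with 1 gene symbol on the array, chosen by symbol and not by signal, with Rab27b left out. They comprised 50 Rab genes, 23 sorting nexins, 10 syntaxins and 7 VAMPs, out of 13840 genes with such a probe. For each gene the probe with the highest mean signal over the 4 arrays was used.

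The Mtg16-null group had 2 arrays of female mice aged 8 to 12 weeks, from a line backcrossed for 4 generations (N4) into C57BL/6. The wild-type group had 2 arrays of female C57BL/6 mice of the same age. Mtg16 (symbol Cbfa2t3) is a transcriptional corepressor of the ETO family expressed in blood progenitors. Each array carried RNA pooled from the marrow of 4 mice after magnetic removal of cells bearing mature lineage markers, and each of 2 array lots held 1 null and 1 wild-type array. The labels do not say whether replicates came from separate pools, so p-values rest on the spread between these 4 arrays, which may be technical. The test used, limma, takes that spread partly from the gene itself and partly from all genes tested.

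Rab proteins are small GTPases that switch between an active state on a membrane and an inactive state in the cytosol, and each marks particular compartments and recruits the proteins that move, tether and fuse vesicles there. Syntaxins and VAMPs are SNARE proteins on opposing membranes, whose pairing drives fusion. Sorting nexins bind phosphoinositides through a PX domain, and many sort cargo out of endosomes. Blood cells use the same machinery for ordinary traffic and for the storage and release of granules, as in neutrophils, mast cells and platelets.

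The promoters of 4 genes described below are shown to give the sequence context of Rab31, Rab32 and Snx18, which read higher in null marrow, and of Stx17, which read lower. They were picked by name and not by a rule on size, and each had exactly 1 entry in the RefSeq promoter table (GRCm38.p6). That table held 72 of the 90 genes and spans 250 bases before to 50 after a gene's start. Stx17 did not meet the rule of 1.5-fold in both lots that is used below. The windows are chr17:65772703-65773002 on the minus strand for Rab31, chr10:10558158-10558457 on the minus strand for Rab32, chr13:113618515-113618814 on the minus strand for Snx18 and chr4:48124669-48124968 on the plus strand for Stx17. Each is printed 5′ to 3′, and capitals mark matches on either strand to the E-box CANNTG, the Runx motif TGTGGT, the ETS motif GGAAGT or the GATA motif AGATAA.
Rab31: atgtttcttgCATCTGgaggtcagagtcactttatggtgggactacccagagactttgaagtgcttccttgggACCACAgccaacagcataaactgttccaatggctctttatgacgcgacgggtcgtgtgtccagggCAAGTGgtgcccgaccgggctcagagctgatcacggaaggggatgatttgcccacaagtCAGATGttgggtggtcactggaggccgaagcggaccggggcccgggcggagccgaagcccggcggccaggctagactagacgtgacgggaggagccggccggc
Rab32: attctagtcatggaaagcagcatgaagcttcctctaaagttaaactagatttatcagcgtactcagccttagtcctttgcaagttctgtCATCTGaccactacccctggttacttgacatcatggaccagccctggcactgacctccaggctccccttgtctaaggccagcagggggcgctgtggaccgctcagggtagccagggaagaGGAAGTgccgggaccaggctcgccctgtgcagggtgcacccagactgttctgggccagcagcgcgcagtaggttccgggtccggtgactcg
Snx18: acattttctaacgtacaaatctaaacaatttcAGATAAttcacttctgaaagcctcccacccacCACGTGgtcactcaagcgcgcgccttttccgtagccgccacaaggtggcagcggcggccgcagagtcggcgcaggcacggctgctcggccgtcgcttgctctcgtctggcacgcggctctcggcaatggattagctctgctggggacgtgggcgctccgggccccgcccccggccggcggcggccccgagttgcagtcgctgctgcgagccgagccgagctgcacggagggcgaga
Stx17: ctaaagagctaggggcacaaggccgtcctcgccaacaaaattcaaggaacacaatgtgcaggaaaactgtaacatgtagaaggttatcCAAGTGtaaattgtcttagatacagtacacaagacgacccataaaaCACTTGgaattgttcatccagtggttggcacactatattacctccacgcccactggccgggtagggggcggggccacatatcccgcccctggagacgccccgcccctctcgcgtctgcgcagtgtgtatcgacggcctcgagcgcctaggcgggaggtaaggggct

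The Rab31 window held 3 E-box matches and 1 Runx match, that of Rab32 held 1 E-box and 1 ETS match, that of Snx18 held 1 E-box and 1 GATA match, and that of Stx17 held 2 E-box matches. Of the 32851 promoters in the table, 72.3% held the E-box letters, 16.8% the Runx, 23.8% the ETS and 11.2% the GATA letters on either strand, so an E-box match is common. No 2 matches overlapped in the printed windows.

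Values are probe signals on a linear scale, which the deposited table gives already normalized to a common distribution with a median of 470 units on every array. Probes differ in brightness, so a higher signal of a gene than of another was not read as more transcript. Signals of different probes do enter the background mark, the filter on dim probes and the choice of brightest genes. They also enter the ratios of related Rabs and the marker sums, where bright probes weigh most. The probe of Cbfa2t3 read 95520 and 118572 units on the null arrays of lots 1 and 2, against 80854 and 100256 on the wild-type arrays, a log2 difference of 0.24. Whether it lies inside the deleted segment is not given in the sources used here, so it checks the labels in neither direction. Kit, a progenitor receptor, read 34022 and 41866 units in null and 39213 and 47408 in wild-type marrow, while Cd3e, of T cells, lay between 120 and 325 units on the 4 arrays. The 3 Y-linked genes Uty, Kdm5d and Eif2s3y, which female mice lack, gave signals of 94.5 to 310 units, and that range is used below as a mark of background.

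None of the genes passed the test across all genes in either direction. By the size of the difference in both array lots, 6 Rab genes read higher in null marrow: Rab27a, Rab32 and Rab38, of granules and lysosome-related organelles, and Rab31, Rab44 and Rab7b. The sorting nexins Snx10, Snx18 and Snx24 read higher as well, by 1.87-fold for Snx10 and 1.79-fold for Snx18, with Snx24 near background in wild type. Rab4a, on chromosome 8 as Cbfa2t3 is, read 1.70-fold lower in null marrow, and Rab30 read lower with its null signals near background. The share of these genes that read higher, 12%, was near that of all genes tested, 8.54%. None of the 9 tested syntaxins and 7 VAMPs was at least 1.5-fold apart in the same direction in both lots. Of all genes tested, 8.54% were higher and 5.76% lower by that rule.

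Of the 90 genes, 75 had a probe in the brighter 50% of all probes and were tested within a limma fit over 8444 genes. With limma, 0 of the 75 passed at an adjusted p under 0.05 in either direction, where 0.118% of all genes tested passed as lower and 0% as higher. At an unadjusted p under 0.05, 12 of the 75 were higher (16% against 9.65% of all genes) and 4 lower (5.33% against 6.83%). With the array lot as a block, 0 of the 75 and 0% of all genes passed at an adjusted p under 0.05. At an unadjusted p under 0.05 with the block, 15 were higher (13.3% of all genes) and 7 lower (11% of all genes).

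A second rule asked for a difference of at least 1.5-fold in the same direction in both lots. It was met by 9 of the 75 genes as higher, 12% of them, against 8.54% of all genes tested, and by 2 as lower, or 2.67%, against 5.76%. At a threshold of 2-fold, chosen after the values were seen, 4 were higher in both lots (3.26% of all genes) and 1 lower (2.2% of all genes). Both null arrays lay above both wild-type arrays for 21 of the 75 genes (22.6% of all genes) and below them for 11 (23.2% of all genes). The median log2 difference of the 75 genes was 0.11, with 48 above 0, and that of all genes tested was -0.02, with 47.9% above 0. The members' median depended on single arrays, being 0.16 when null array 2 was left out, 0.05 when wild-type array 1 was left out and 0.019 when wild-type array 2 was. In bulk RNA, fewer cells of a type and less RNA per cell cannot be told apart.

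**Figure D1:**
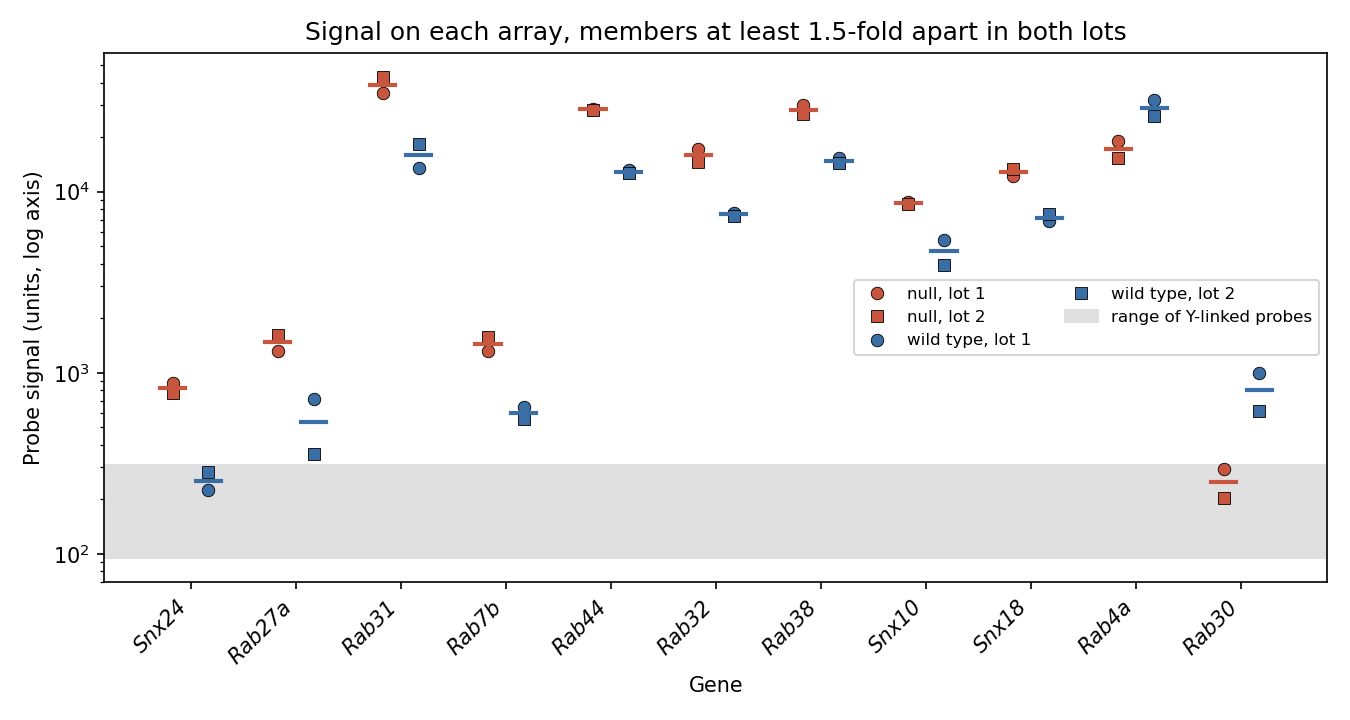
Probe signal in units on a log axis for the 11 tested genes at least 1.5-fold apart in the same direction in both lots, ordered by log2 difference; circles are lot 1, squares lot 2, short lines group means of 2 arrays, with null on the left of each gene, and the grey band the range of the Y-linked probes. Null arrays lie above wild-type arrays for 9 genes and below them for Rab4a and Rab30, and the wild-type signals of Snx24 and the null signals of Rab30 fall within the band.

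Rab27a docks secretory granules at the plasma membrane, and its loss in mice and humans impairs granule release and pigment transfer. It read 1325 and 1622 units on the null arrays of lots 1 and 2, against 714 and 357 on the wild-type arrays. Both null arrays were above both wild-type arrays, but the wild-type arrays differed from each other, and the 2 lots gave log2 differences of 0.89 and 2.18. Over both lots it was 1.54 (limma SE 0.40, adjusted p = 0.200), which did not pass.

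Rab32 and Rab38 are close relatives that act in the making of melanosomes and other lysosome-related organelles, including platelet dense granules. Rab32 read 17147 and 14650 units in null marrow, against 7654 and 7338 in wild type. Rab38 read 29928 and 26811 units in null marrow, against 15249 and 14413 in wild type. For both genes the groups were well separated and the lots alike, with log2 differences of 1.16 and 1.00 for Rab32 and of 0.97 and 0.90 for Rab38. The fold changes were 2.11 for Rab32 (limma adjusted p = 0.108) and 1.91 for Rab38 (limma adjusted p = 0.123).

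Rab37, a Rab of mast cell granules, read 3433 and 2337 units in null marrow and 2223 and 1791 in wild type, a log2 difference of 0.51 (limma SE 0.28, adjusted p = 0.480). Rab3d, a Rab of secretory granules, read 835 and 1353 units in null marrow and 1056 and 169 in wild type. A low wild-type array in lot 2 sets its log2 difference, since lot 1 gave -0.34 and lot 2 gave 3.004. That wild-type signal fell inside the Y-linked range, so background limits the size in lot 2. Over both lots it was 1.33, and it was 0.0098 without wild-type array 2 (SE over all arrays 0.97, limma adjusted p = 0.604). Of the 10 Rabs grouped here as secretory and lysosome-related, 7 were tested. Of these, 6 had a difference above 0 and 3 were at least 1.5-fold higher in both lots. Over all genes tested, 47.9% and 8.54% met these rules. The other 4 tested were Rab37, Rab3d, Rab3a and Rab39, the last with a log2 difference of -0.40. That of Rab3a was 0.22, and -0.11 when wild-type array 1 was left out. Rab44, described below, was grouped with other Rabs. The median log2 difference of the 7 was 0.93, and 0.54 when wild-type array 2 was left out.

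Several lists of cell type markers moved with genotype. Over all genes tested, 8.54% were at least 1.5-fold higher in both lots and 5.76% lower. Of 7 early granulocyte genes, 6 were at least 1.5-fold higher in both lots, and their summed signal was 3460852 to 4112756 units in null marrow, against 1602691 to 1689228 in wild type. All 11 late neutrophil genes were at least 1.5-fold lower in both lots, with a summed signal of 148105 to 158427 units in null marrow, against 1369465 to 1485619 in wild type, and 7 of them passed limma. Of 7 megakaryocyte genes 4 were higher and 1 lower by that rule, with sums of 846937 to 959465 units in null marrow and 501275 to 501979 in wild type. Of 5 mast cell, basophil and eosinophil genes tested, 2 were higher and 1 lower, with sums over the 6 genes with a probe of 581724 to 660599 units in null marrow and 323918 to 337520 in wild type. That sum is carried by the eosinophil granule gene Prg2, without which it was 175893 to 182963 units in null marrow and 229561 to 230924 in wild type. The eosinophil genes Prg2 and Epx had log2 differences of 2.13 and 1.88, and the mast cell and basophil genes Mcpt8, Cpa3 and Ms4a2 of -0.65, -0.69 and -0.55. Of 9 erythroid genes 6 were lower and 0 higher, with sums of 544954 to 617013 units in null marrow and 829835 to 990933 in wild type.

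Of 4 stem and progenitor genes 2 were higher by that rule, with sums of 95242 to 99287 units in null marrow, against 69872 to 70166 in wild type. Without Cd34 the sums were 52302 to 58072 units in null marrow and 53376 to 56354 in wild type, which overlap. Of 5 endothelial and stromal genes tested 3 were higher, Pecam1, Kdr and Tek, and 1 was lower, Col1a1. The sums over 6 genes were 17515 to 19166 units in null marrow, against 12243 to 12455 in wild type. Cdh5, the endothelial gene too dim to be tested, went lower, at 59.0 and 216 units in null marrow against 282 and 390 in wild type. Of these signals only the last lay above the Y-linked range. The B cell gene Ms4a1, too dim to be tested, read 68.0 and 143 units in null marrow, inside or below the Y-linked range, against 1444 and 1767 in wild type. The B cell gene Cd79a, which was tested, had a log2 difference of 0.37 and did not meet the rule, nor did Cd3g, of T cells. The 4 B and T cell genes with a probe summed to 2782 to 3382 units in null marrow, against 3807 to 4628 in wild type, and without Ms4a1 to 2639 to 3314 units in null marrow, against 2040 to 3184 in wild type. No marker of these 8 lists was at 0. The part of these cell types in the differences of the traffic genes was not tested.

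Rab44 is an unusually large Rab whose loss in mice alters mast cell degranulation. It read 28570 and 28361 units in null marrow, against 13116 and 12689 in wild type. The replicates of each genotype were close, and the 2 lots gave log2 differences of 1.12 and 1.16. The fold change was 2.21 (log2 difference 1.14, SE 0.17, limma adjusted p = 0.0975).

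Rab31, of the Rab5 subfamily, acts in traffic between the trans-Golgi and endosomes. It read 34919 and 42939 units in null marrow, against 13525 and 18328 in wild type. The groups did not overlap, and the log2 differences were 1.37 in lot 1 and 1.23 in lot 2. The fold change was 2.46 (log2 difference 1.30, SE 0.25, limma adjusted p = 0.125).

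Rab31, Rab32, Rab38 and Rab44 passed limma when a variance trend was fitted (adjusted p = 0.0387, 0.0354, 0.0390 and 0.0237). The same 4 genes and Snx18 passed among the brightest 25% of probes (adjusted p = 0.0355, 0.0270, 0.0343, 0.0214 and 0.0455, in that order). Calls over all genes also grew under these settings, to 295 of 8444 and 291 of 4967 genes tested, and the 5 genes passed under no other setting tried.

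Rab7b acts between late endosomes and the trans-Golgi. It read 1315 and 1570 units in null marrow, against 643 and 554 in wild type. Every null array was above the wild-type arrays, with log2 differences of 1.03 in lot 1 and 1.504 in lot 2 (over both lots 1.27, SE 0.20, limma adjusted p = 0.104). Rab7, the main Rab of late endosomes and lysosomes, read 88940 and 103468 units in null marrow, against 75517 and 92758 in wild type. Its groups overlapped, and the log2 difference was 0.20 (limma SE 0.21, adjusted p = 0.739). The ratio of Rab7 to Rab7b within an array was lower in null marrow by 0.80 on the log2 scale in lot 1 and by 1.35 in lot 2. An exact permutation test of 2 arrays against 2 cannot give a two-sided p below 0.333.

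Rab4a, a Rab of rapid recycling from early endosomes to the cell surface, read lower in null marrow. Its gene lies on chromosome 8, as does Cbfa2t3, and the null line was backcrossed for 4 generations. The part of sequence linked to the deleted gene in this difference was not tested. Rab3a, Rab8a and Snx20, also tested and on chromosome 8, had log2 differences of 0.22, 0.33 and 0.47, each with overlapping groups. The signal of Rab4a was 19092 and 15249 units on the null arrays, against 32091 and 26179 on the wild-type arrays. The groups did not overlap, with log2 differences of -0.75 in lot 1 and -0.78 in lot 2 (over both lots -0.76, SE 0.22, limma adjusted p = 0.237). Its close relative Rab4b read 11339 and 7754 units in null marrow, against 9564 and 5759 in wild type, with a log2 difference of 0.34, and of -0.03 when wild-type array 2 was left out. The ratio of Rab4a to Rab4b within an array was lower in null marrow by 0.99 on the log2 scale in lot 1 and 1.21 in lot 2. Of 12 pairs of related Rab genes compared in this way, 2 had a ratio at least 1.5-fold apart the same way in both lots. They were Rab4a with Rab4b and Rab7 with Rab7b. The share over other pairs of genes was not computed, so this count has no background to be set against. These pairs were chosen after their values were seen.

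Rab30, a Rab of the Golgi, read 294 and 203 units in null marrow, against 998 and 613 in wild type. Its null signals fell inside the Y-linked range, so background limits what can be said of the size of the difference. Lot 1 gave a log2 difference of -1.76 and lot 2 one of -1.60 (over both lots -1.68, SE 0.35, limma adjusted p = 0.137). Rab19, another Golgi Rab, read 1567 and 979 units in null marrow, against 2650 and 1364 in wild type. Its groups overlapped, while within lots the log2 differences were -0.76 and -0.48.

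Rab8b, of traffic from the Golgi to the plasma membrane, read 988 and 908 units in null marrow, against 1315 and 1369 in wild type, a log2 difference of -0.50. Rab13, of traffic to cell junctions, read 532 and 476 units in null marrow, against 636 and 924 in wild type, with log2 differences of -0.26 in lot 1 and -0.96 in lot 2. Rab10, of exocytic vesicles, read 20539 and 19940 units in null marrow, against 24137 and 23809 in wild type, a log2 difference of -0.24. None of these 3 passed limma, and for each the null arrays lay below the wild-type arrays. Among the 11 tested Rabs of recycling and the plasma membrane, 6 differences were above 0 (47.9% of all genes) and 5 below, between -0.76 and 0.34.

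Rab11b, of recycling endosomes, read 111352 and 120287 units in null marrow, against 103888 and 118805 in wild type, a log2 difference of 0.06. Rab43, a Golgi Rab, read 336 and 855 units in null marrow and 589 and 642 in wild type, with log2 differences of -0.81 in lot 1 and 0.41 in lot 2. Neither gene's groups were separated. The 12 tested ER and Golgi Rabs had 6 differences on each side of 0 (47.9% of all genes were above 0). Among them Rab2a, of transport between ER and Golgi, chosen after its values were seen, read 44239 and 45829 units in null marrow and 27339 and 32509 in wild type, a log2 difference of 0.59 (limma adjusted p = 0.258).

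The early endosome Rabs were not uniform. Of the 5 tested, 2 had a difference above 0 (47.9% of all genes) and 3 below. Besides Rab31 the higher one was Rab5b, for which the 2 probes on the array disagreed in size. The brighter read 1083 and 576 units in null marrow, against 191 and 500.3 in wild type, and the dimmer gave a log2 difference of 0.23. The wild-type signal of the brighter probe in lot 1 fell inside the Y-linked range, so background limits the 2.50 found in that lot, while lot 2 gave 0.20. Its log2 difference was 1.35 over both lots and 0.66 when wild-type array 1 was left out. The other Rab5 genes, Rab5a and Rab5c, had log2 differences of -0.20 and -0.17, with overlapping groups and a sign that changed when 1 array was left out.

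**Figure D2:**
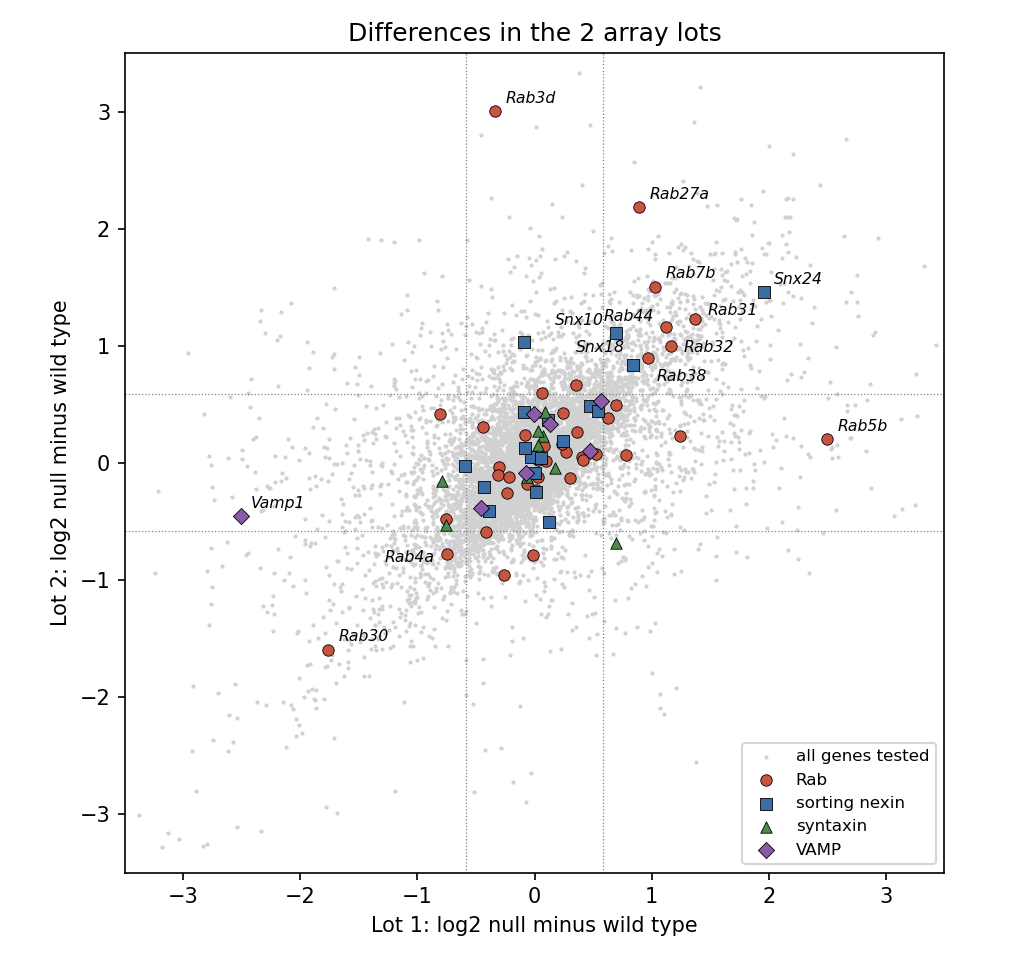
Log2 difference, null minus wild type, in lot 1 (x axis) and lot 2 (y axis) for the 75 tested genes by family and for all 8444 genes in grey; dotted lines mark 1.5-fold, and 31 grey genes lie beyond the axes. Rab31, Rab32, Rab38 and Rab44 lie near the diagonal at about the same difference in both lots, while Rab3d, Rab5b and Vamp1 were far apart in 1 lot alone.

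Among sorting nexins, 12 of the 18 tested had a difference above 0 (47.9% of all genes), 3 were at least 1.5-fold higher in both lots (8.54% of all genes) and 0 were lower by that rule (5.76% of all genes). Snx18, of the SNX9 subfamily that shapes membranes in endocytosis, read 12260 and 13388 units in null marrow, against 6845 and 7502 in wild type. The lots were alike, at log2 differences of 0.84 and 0.84, and the fold change was 1.79 (SE of the log2 difference 0.18, limma adjusted p = 0.141). Snx10, needed for bone resorption by osteoclasts, read 8766 and 8516 units in null marrow, against 5414 and 3954 in wild type. Its groups were separated, with log2 differences of 0.70 in lot 1 and 1.11 in lot 2 (over both lots 0.90, SE 0.23, limma adjusted p = 0.194).

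Snx24, a small PX-only protein, had a log2 difference of 1.71 (limma SE 0.21, adjusted p = 0.0933). It read 878 and 774 units in null marrow, against 226 and 282 in wild type. Its wild-type signals fell inside the Y-linked range, so background limits what can be said of its fold and of its place in the order of the genes. Snx15, an endosomal nexin, read 8418 and 8005 units in null marrow, against 10997 and 10619 in wild type, a log2 difference of -0.40 (limma SE 0.17, adjusted p = 0.369), and its groups did not overlap.

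Several nexins work with retromer, the complex that returns cargo from endosomes to the trans-Golgi. Snx1 read 85487 and 76283 units in null marrow, against 84701 and 90866 in wild type, a log2 difference of -0.12, and its groups overlapped. Its partners Snx2, Snx5 and Snx6 had log2 differences of 0.22, 0.02 and 0.48, and that of Snx5 changed sign when single arrays were left out. Snx2 and Snx6 each had 2 probes, which gave 0.22 and 0.35 for Snx2 and 0.48 and 0.40 for Snx6. Snx17, which recycles LDL receptor family proteins and integrins, read 105822 and 83058 units in null marrow, against 102061 and 80677 in wild type, a log2 difference of 0.05. Snx9, chosen after its values were seen, had a log2 difference of 0.49 and did not pass limma.

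Syntaxins were measured for 10 genes, 9 of them tested, and 0 were at least 1.5-fold apart in both lots. Of all genes tested, 8.54% were higher and 5.76% lower by that rule. Stx17, which drives fusion of autophagosomes with lysosomes, read 4051 and 4399 units in null marrow, against 6837 and 6360 in wild type. Both null arrays were below both wild-type arrays, with log2 differences of -0.76 in lot 1 and -0.53 in lot 2 (over both lots -0.64, SE 0.17, limma adjusted p = 0.211). Stx3 and Stx4a, syntaxins of the plasma membrane that take part in granule release, had log2 differences of -0.09 and 0.26, and the groups of both overlapped. Stx3 read 1218 and 914 units in null marrow, against 1273 and 997 in wild type. Stx4a read 34108 and 25163 units in null marrow, against 31999 and 18673 in wild type. Stx1a, the neuronal plasma membrane syntaxin, read 589 and 451 units in null marrow and 363 and 724 in wild type, with log2 differences of 0.70 in lot 1 and -0.68 in lot 2.

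All 7 VAMP genes were tested, and 4 had a difference above 0 (47.9% of all genes). Vamp7, which fuses late endosomes and lysosomes with other membranes, read 12057 and 15679 units in null marrow, against 8149 and 10852 in wild type. Its null arrays were above the wild-type arrays, with lot differences of 0.57 and 0.53 (over both lots 0.55, SE 0.26, limma adjusted p = 0.411). Vamp8, a SNARE of endosomes and of granule release, read 101360 and 108341 units in null marrow, against 92662 and 86209 in wild type, a log2 difference of 0.23 (limma SE 0.17, adjusted p = 0.618).

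Vamp5, of the plasma membrane, read 65678 and 54597 units in null marrow, against 90036 and 71230 in wild type, a log2 difference of -0.42 (limma SE 0.22, adjusted p = 0.468). Vamp1, a synaptobrevin best known from neurons, read 220 and 352 units in null marrow, against 1252 and 483 in wild type. Its null signal in lot 1 fell inside the Y-linked range, and its log2 differences in the 2 lots were -2.51 and -0.46. Vamp3, of recycling vesicles, read 9734 and 10354 units in null marrow, against 9762 and 7766 in wild type, a log2 difference of 0.21. For Vamp2 the 2 probes disagreed in direction: the brighter read 1697 and 1373 units in null marrow, against 1220 and 1279 in wild type, a log2 difference of 0.29, and the dimmer gave -0.27.

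**Figure D3:**
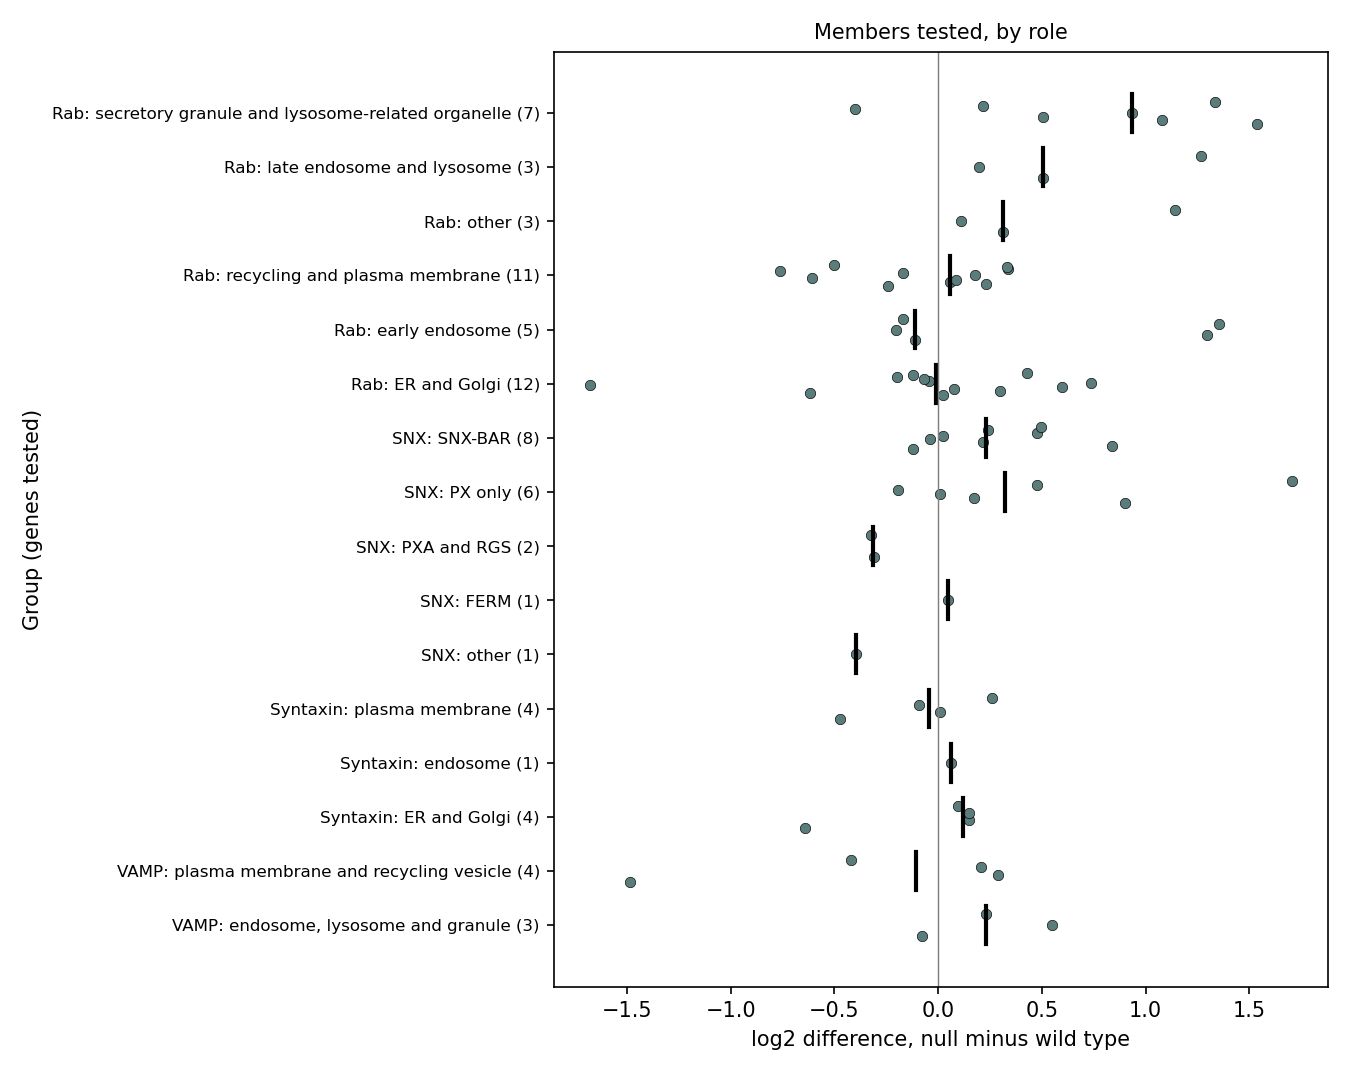
Log2 difference, null minus wild type, of each tested gene (points) by role, with the group median as a black line and the number of genes tested in brackets. The secretory and lysosome-related Rabs have a median of 0.93, which was 0.54 without wild-type array 2, and the ER and Golgi Rabs scatter on both sides of 0.

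The other 15 genes had probes in the dimmer 50% and were not tested. They were Rab15, Rab17, Rab20, Rab2b, Rab39b, Rab3b, Rab3c, Rab40b, Rab9b, Snx21, Snx29, Snx30, Snx31, Snx33 and Stx8, with mean signals of 169 to 447 units. By the rule of at least 1.5-fold in both lots, 3 of them were lower in null marrow and 0 higher. These were Rab17, at 206 and 144 units in null marrow against 737 and 252 in wild type, Rab3b, at 145 and 154 against 291 and 276, and Rab40b, at 131 and 113 against 258 and 231. All their null signals fell inside the Y-linked range, as did the wild-type signals of Rab3b, Rab40b and, in lot 2, Rab17. No loss from a detected level can therefore be read from them. The share over the other dim genes was not computed, so the count of 3 has no background to be set against.

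Genes that act with these families were taken from 7 lists with 146 genes, of which 100 had a probe and 87 were tested. With limma 0 passed at an adjusted p under 0.05. At an unadjusted p under 0.05, 7 of the 87 were higher and 5 lower, where 9.65% and 6.83% of all genes tested were. At least 1.5-fold in both lots, 7 were higher (8.05%) and 4 lower (4.6%), against 8.54% and 5.76% of all genes tested.

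Rab activators, the exchange factors that load Rabs with GTP, included genes on both sides. Rin3, an exchange factor of the Rab5 subfamily to which Rab31 belongs, read 15453 and 18393 units in null marrow, against 7383 and 8041 in wild type, a log2 difference of 1.13 (limma SE 0.19, adjusted p = 0.108). Rab3il1, an exchange factor of Rab8 and a binding partner of Rab3, read 328 and 489 units in null marrow, against 1299 and 2416 in wild type, a log2 difference of -2.15 (limma SE 0.41, adjusted p = 0.125). Of the 18 activator genes tested 2 met the 1.5-fold rule as higher (8.54% of all genes) and 2 as lower (5.76% of all genes). The activators' median log2 difference was 0.14, or 0.0027 when wild-type array 2 was left out.

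Of 17 genes of Rab GAPs, which switch Rabs off, 1 was higher (8.54% of all genes) and 2 were lower (5.76%) by that rule. The median log2 difference of the 17 was 0.27, or 0.085 when null array 1 and 0.099 when wild-type array 1 was left out. Tbc1d10c read 50325 and 44383 units in null marrow, against 29873 and 28217 in wild type, a log2 difference of 0.70. Evi5 read 6185 and 5713 units in null marrow, against 12326 and 13938 in wild type, a log2 difference of -1.14 (limma SE 0.18, adjusted p = 0.104).

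Of 13 Rab effector genes 3 were higher by that rule and 0 lower, with a median of 0.55, or 0.34 when null array 1 was left out, and 10 differences above 0. In all genes tested 8.54% were higher by that rule and 47.9% above 0. Mical1, a flavoprotein that acts on actin and binds Rabs, read 17960 and 15934 units in null marrow, against 10139 and 7829 in wild type, a log2 difference of 0.93 (limma adjusted p = 0.171). Sytl3, a synaptotagmin-like protein that binds Rab27a, read 613 and 652 units in null marrow, against 1127 and 843 in wild type. Its log2 difference was -0.62 (limma adjusted p = 0.297), and it did not meet the rule. Its relative Sytl4 met the rule as higher, with a log2 difference of 0.88, and Sytl2 was lower but too dim to be tested.

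The remaining lists held the general fusion and sorting machinery. Of 12 partner SNARE genes and 10 genes of retromer, HOPS and exocyst, 0 were at least 1.5-fold apart in both lots. In all genes tested 8.54% were higher and 5.76% lower by that rule. The medians of the SNARE list and of the retromer, HOPS and exocyst list were -0.01 and -0.08. Sec22b and Snap29 had the highest and lowest repeatable differences of the SNARE list, at 0.22 and -0.24, and Vps11 and Vps35 those of the tether and retromer list, at 0.45 and -0.27. Among 11 genes of SM proteins, NSF and SNAPs, 1 was higher, Cplx2, a complexin that controls SNARE fusion, at 2640 and 2786 units in null marrow, against 1501 and 1822 in wild type. Its log2 difference was 0.71, and Stxbp3 had one of -0.33. The 6 tested genes of Rab prenylation and recycling had a median of -0.01, between Rabac1 at 0.49 and Rabggtb at -0.34 among repeatable differences.

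**Figure D4:**
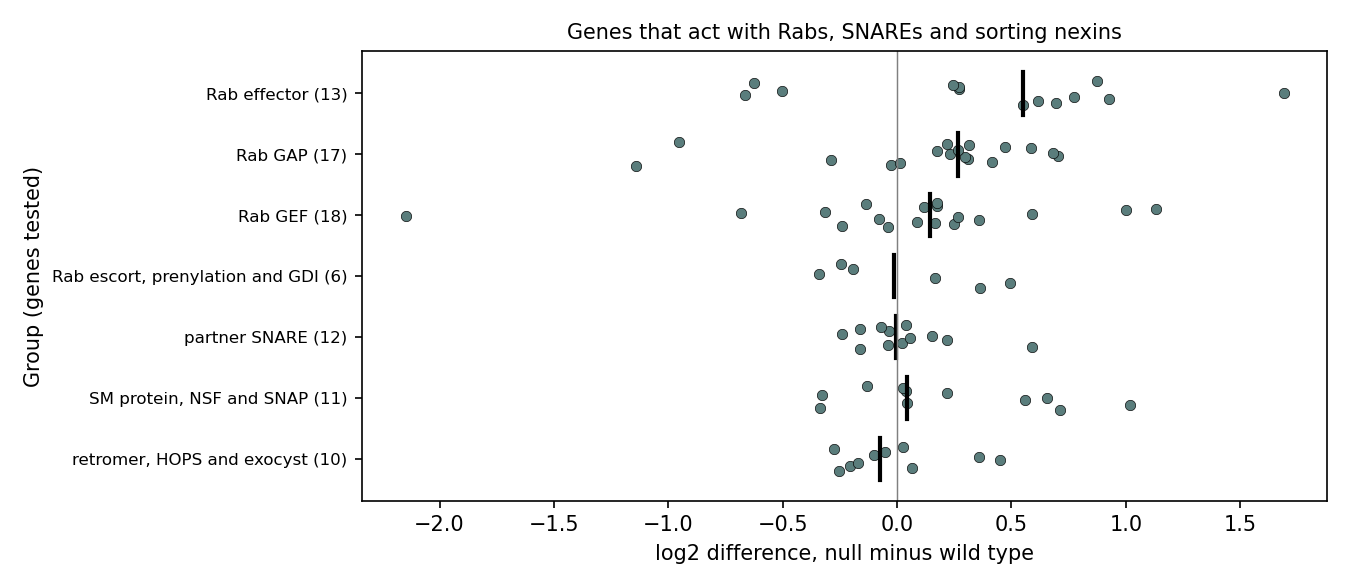
Log2 difference, null minus wild type, of each tested gene (points) in 7 lists of genes that act with Rabs, SNAREs and sorting nexins, with list medians as black lines and the number tested in brackets. The Rab effectors have a median of 0.55, which was 0.34 without null array 1, and the SNARE partner, prenylation and retromer lists have medians close to 0.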

How the data were processed

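RNA of 4 array samples was measured, 2 Mtg16-null and 2 wild type. The deposited table holds the intensity of each probe, not log-transformed, from single-colour arrays hybridised with digoxigenin-labelled cRNA per the labels' protocols. Their equal distributions on the 4 arrays show normalization before deposit; how background was corrected and which probes the scanner software called detected is not given in the sources used here. Of 33012 probes, 14411 had 1 gene symbol in the platform annotation supplied, and 95 of these named the 90 genes. Read depth does not apply, and precision is limited by having 4 arrays.

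A floor was set at the 1st percentile, 75.8 units, and values were then put on the log2 scale. A gene was tested where its brightest probe was in the upper 50% by mean log2 signal, at 417 units or more. The lmFit and eBayes functions of limma 3.58.1, in R 4.3.3, were fitted to 8444 genes with genotype as the term, 2 residual and 2.11 prior degrees of freedom, and Benjamini-Hochberg adjustment over all genes. The test is two-sided. The fit was run on simulated arrays drawn independently, with the same spread for every gene, to check the size and sign of differences. These arrays share lots and their genes differ in spread, so that run does not check how often calls here are false. Replicate numbers are the array lots per the series text, so they pair arrays of the 2 genotypes. Deviations of same-numbered arrays from their group means correlated at 0.50 over genes. A lot has 1 array a genotype and no test of its own. Alternatives changed the filter, block, variance prior, scaling, floor, probe choice and arrays. Figures used matplotlib 3.10.9 in Python 3.11.15.

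Genes named with values were members past limma, the 10 highest and 10 lowest by the smaller within-lot difference, the 5 brightest, the 3 that differed most between lots in opposite directions, and 13 fixed granule and secretion genes where a probe existed, of which 11 had one. Of each list of partner genes the highest and lowest were named. Rab2a, Rab3a, Rab39, Rab4b, Rab5a, Rab5b, Rab5c, Rab8a, Snx2, Snx5, Snx6, Snx9, Snx20, Sytl2, Sytl4, the 3 dim genes with values and the pairs of related Rabs were chosen after their values were seen. The genes, lists and rules were chosen with earlier results of these data known.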

Additional observations from a re-analysis of the deposited data

How the results depend on the processing

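The 4 arrays limit every call. All 10 genes that passed over the whole table were outside the 75, and that count was 0 with the lot as a replicate block, 0 without the filter on dim probes, 295 with a variance trend, 291 with the brightest 25% of probes and 0 with any array left out. The count of members called was 0 with the block, 0 with cyclic loess and 0 with an array left out, against 4 with a variance trend and 5 with the brightest 25% of probes. The block could change no call of a member, since 0 had passed without it and 0 of all genes passed with it. The members' median was 0.17 with the brightest 25% of probes, and between 0.019 and 0.16 with an array left out. The members at least 1.5-fold lower in both lots were 5 without the filter, which adds 3 dim genes, and 1 with the brightest 25% of probes. The shares over all genes under these filters were not computed. At least 2-fold in both lots, a rule chosen after seeing the data, 4 members were higher (3.26% of all genes) and 1 lower (2.2% of all genes). Of 349 alternative values of the 33 named genes, 330 kept direction and call, 9 newly passed and 10 changed sign. None of the 33 had passed in the main fit, so a kept call means only that the gene stayed uncalled. Where 0 genes passed over the whole table, no call could change, so the 330 does not measure how stable calls are. Of the genes named outside the rule, Rab3a, Rab4b, Rab5a, Rab5c and Snx5 also changed sign with an array left out. Their log2 differences ran from -0.11 to 0.54, -0.03 to 0.70, -0.46 to 0.05, -0.38 to 0.04 and -0.12 to 0.17, in that order. Stx1a had -0.0093 with cyclic loess. With an array left out, the log2 difference ran from -0.87 to 0.48 for Rab43, -0.13 to 0.22 for Snx17, -0.49 to 0.50 for Stx1a, -0.30 to 0.11 for Stx3, -0.038 to 0.16 for Rab11b and -0.13 to 0.65 for Stx4a. The cause of these changes was not tested.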
